A study of Mus musculus with 44 samples.

Results

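The 37 genes described here encode the enzymes with which hepatocytes strip nitrogen from amino acids, pass it to the urea cycle and build glucose from the carbon that remains. They were chosen by name, as the members of these pathways, out of 20105 gene identifiers in the deposited count table, and all 37 were found there. They fall into 8 role groups: 5 urea cycle enzymes, 3 genes that supply the cycle, 4 of gluconeogenesis, 4 of tyrosine breakdown, 5 of tryptophan breakdown, 6 of transamination and serine use, 4 of lysine and proline breakdown, and 6 of histidine and glycine breakdown.

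The libraries came from livers of 22 male HEP-INTACT mice, whose hepatocyte nuclei are tagged so that beads can pull them out. All groups, controls included, carried the tag. The promoter that drives it, the strain background and the age of the mice are not given in the labels. Of 11 mice in the FPC study (a fructose, palmitate and cholesterol diet that gives steatohepatitis), 4 controls had a low-fat diet for 20 weeks, and 4 with mild and 3 with advanced disease had the FPC diet for 20 weeks. Of 11 mice in the CDAHFD study (a high-fat diet that lacks choline and has defined amino acids), 4 controls had a low-fat diet for 7 weeks, and 4 with mild and 3 with advanced disease had CDAHFD for 7 weeks. Mild and advanced groups were formed by liver histology and not by random assignment. Diet, its duration and the study cannot be told apart. Each mouse gave 1 library of bead-bound hepatocyte nuclei and 1 of unsorted whole liver nuclei, 44 in all.

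The urea cycle turns ammonia, which is toxic, into urea, and runs almost only in hepatocytes, mainly those around the portal vein. Its ammonia comes from amino acids, whose amino groups are moved by aminotransferases or released by dehydratases, glutaminase and ammonia-lyases. The carbon skeletons enter central metabolism, and in fasting much of the carbon leaves the liver as glucose made by gluconeogenesis. Several of these genes, Pck1, G6pc and Tat above all, are classic targets of glucagon, glucocorticoids and fasting.

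The depth of the 44 libraries lay between 12.1 and 33.1 M counts (median 22.8 M). Nuclear RNA was counted over whole gene bodies, introns included, for 35 of the 37 members. Aldh4a1 was counted over 99.7% of its span. Ass1 was counted over 79 of its 50401 bases, so its values rest on a few reads per library. Levels are CPM, counts relative to library depth after TMM scaling, which sets the bulk of genes level between libraries. Without TMM, with library totals alone, the median of all genes in hepatocyte nuclei moved to 0.41 (log2) in FPC advanced and 0.49 in CDAHFD advanced against control. The calls in advanced against control mice that this ended are named beside the results. In bulk nuclei, fewer cells of a type and less RNA per cell cannot be told apart. P-values within a fraction measure the spread between these mice. Fits across both fractions treat the libraries of a mouse as independent, unless the mouse is entered as a block.

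The hepatocyte libraries were poor in endothelial RNA: the summed endothelial marker level was 10.8% of that in whole liver nuclei of the same FPC controls, and the group means in the other groups lay between 11.1% and 19.4%. Other marker lists were depleted less in some groups or not at all: the mean summed lymphocyte marker level was 291 CPM in hepatocyte and 285 CPM in whole liver nuclei of FPC mild mice, 163 and 232 CPM in FPC advanced, and 153 and 200.3 CPM in CDAHFD advanced mice. The mean summed recruited macrophage level was 109.6 and 262 CPM in FPC advanced and 105 and 756 CPM in CDAHFD advanced mice. The mean summed cholangiocyte level was higher in hepatocyte than in whole liver nuclei in all groups but CDAHFD controls (376 and 396 CPM). It was 1115 and 886 CPM in FPC mild, 4330 and 2745 CPM in FPC advanced, and 1535 and 1456 CPM in CDAHFD advanced mice. The libraries of CDAHFD controls Ctrl_9862 and Ctrl_9867 went against their labels in pairing: each hepatocyte library resembled the whole liver library of the other mouse. Both mice are controls, so comparisons within one fraction keep their groups, and counts and ratios that include these mice are also given without them where that changed a call or moved a count by over 1.5 times.

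In hepatocyte nuclei of FPC advanced mice, 27 of the 37 members fell and none rose, with a median log2 fold change of -1.54 (edgeR quasi-likelihood test, Benjamini-Hochberg adjusted over all genes, threshold 0.05). Over all genes tested, 20.4% were called lower, 46.9% in either direction, and the median was near 0. The members that fell furthest were Hal, which opens histidine breakdown, Ass1 of the urea cycle, Prodh, which opens proline breakdown, and Agxt, an alanine-glyoxylate aminotransferase. All 5 tryptophan genes and all 4 lysine and proline genes fell. Of 4 gluconeogenesis genes 1, Pcx, passed the test, and G6pc passed in DESeq2 (adjusted p = 0.0475). Members whose advanced libraries all lay below all 4 control libraries numbered 30 of 37, against 29.5% of all genes tested. Leaving out 1 mouse at a time gave 21 to 28 members called. Library totals in place of TMM left 23, ending the calls of Nags, Pcx, Sds and Agxt2.

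In hepatocyte nuclei of CDAHFD advanced mice, 25 of 36 tested members fell and Gpt2, the mitochondrial alanine aminotransferase, rose. The median was -1.34. Over all genes tested, 29.2% were called lower, 30.3% higher and 59.5% in either direction. The largest falls were in G6pc, the last enzyme of glucose release, Kynu of tryptophan breakdown, Hgd of tyrosine breakdown and Agxt. Ass1 was too low to be tested. Advanced libraries lay wholly below controls for 21 tested members (27.8% of all genes) and wholly above for Gpt2 (27.9%). With both crossed controls left out, 26 members fell, none rose and the median was -1.48. With library totals, 20 fell, Gpt2 rose and the median was -0.85. The calls of Asl, Arg1, Afmid, Agxt2 and Amdhd1 were then lost.

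**Figure D1:**
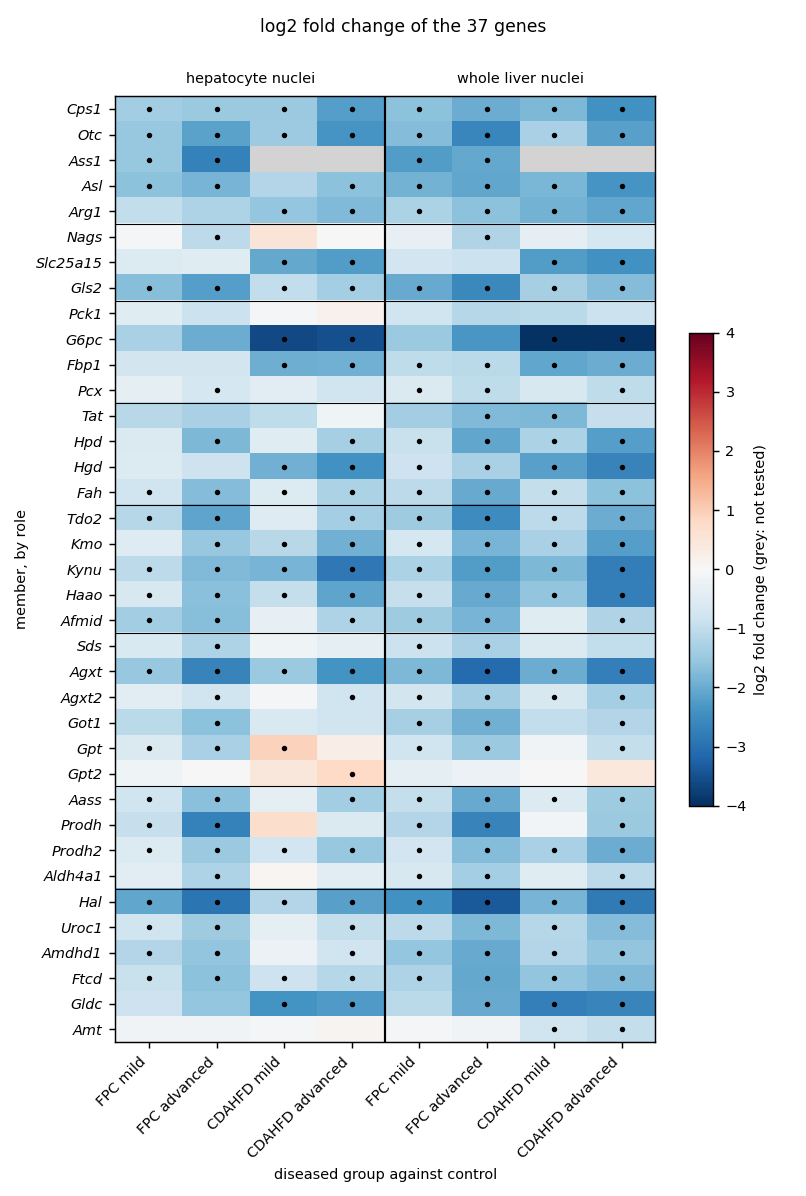
Log2 fold change of each of the 37 members (vertical axis, grouped by role) in each disease against control comparison (horizontal axis), by colour, for hepatocyte and whole liver nuclei. A dot marks an adjusted p under 0.05 and grey a gene not tested. In hepatocyte nuclei, 27 members are marked as lower in FPC advanced mice and 25 in CDAHFD advanced mice.

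The same hepatocyte libraries changed in genes listed as markers of other cell types, though the cholangiocyte list was not depleted in diseased hepatocyte libraries. All 8 recruited macrophage markers (median log2 fold change 4.95) and all 8 cholangiocyte markers (5.06) were higher in hepatocyte libraries of FPC advanced mice than of controls. The summed recruited macrophage level ran from 6.204 to 7.16 CPM in FPC controls, where Trem2 was at 0 in every library, and from 102 to 114 CPM in advanced mice. The summed cholangiocyte level ran from 470.3 to 536 CPM in controls and from 3691 to 5371 CPM in advanced mice. In the CDAHFD study all members of both lists were also higher. There the recruited macrophage sum lay between 6.52 and 10.7 CPM in controls and between 89.9 and 115 CPM in advanced mice, and the cholangiocyte sum between 355 and 403 CPM and between 1239 and 1767 CPM. Of 8 hepatocyte markers, 6 were lower in FPC advanced mice and 4 in CDAHFD advanced mice, and the other members of that list did not pass the test. Stellate markers were higher for 5 of 10 on FPC and 3 of 9 on CDAHFD, where 1 was lower, lymphocyte markers for 4 of 5 tested on both, Kupffer markers for 2 and 5 of 8, with 2 lower on each, and endothelial markers for 1 of 10 on each, with 1 lower on FPC. Over all genes tested, 26.5% were higher and 20.4% lower in FPC advanced mice, and 30.3% and 29.2% in CDAHFD advanced mice. The shares of Kupffer markers higher on FPC and of stellate markers higher on CDAHFD were near these. The part of the marker shifts in the members' falls was not tested.

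The stretches of 250 bases before the start sites of the 4 genes with the largest falls in FPC advanced hepatocytes (Hal, Ass1, Prodh, Agxt) follow, 5′ to 3′ on the gene's strand, as the start regions of genes that fell together. They are from RefSeq on GRCm38.p6, the assembly that the UCSC browser calls mm10, at chr10:93488518-93488767, plus strand for Hal, chr2:31470020-31470269, plus strand for Ass1, chr16:18089191-18089440, minus strand for Prodh and chr1:93134990-93135239, plus strand for Agxt. The place of Ass1 among the 4 rests on a few reads per library, counted over 79 of its 50401 bases. Capitals mark matches to any of 7 motifs searched on both strands.
Hal: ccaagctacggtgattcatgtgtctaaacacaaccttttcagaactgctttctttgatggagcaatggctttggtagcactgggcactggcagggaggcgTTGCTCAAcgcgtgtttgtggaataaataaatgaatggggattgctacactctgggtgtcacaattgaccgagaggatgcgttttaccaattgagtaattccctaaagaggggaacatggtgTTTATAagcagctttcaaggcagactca
Ass1: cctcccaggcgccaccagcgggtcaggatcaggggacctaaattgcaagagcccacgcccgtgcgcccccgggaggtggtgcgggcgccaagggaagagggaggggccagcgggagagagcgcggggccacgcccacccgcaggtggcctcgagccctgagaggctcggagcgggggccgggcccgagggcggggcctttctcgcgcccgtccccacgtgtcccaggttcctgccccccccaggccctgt
Prodh: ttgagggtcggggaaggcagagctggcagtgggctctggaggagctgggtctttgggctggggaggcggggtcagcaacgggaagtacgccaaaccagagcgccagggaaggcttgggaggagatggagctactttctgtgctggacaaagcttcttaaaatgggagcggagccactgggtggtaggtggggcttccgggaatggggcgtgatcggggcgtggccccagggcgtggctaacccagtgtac
Agxt: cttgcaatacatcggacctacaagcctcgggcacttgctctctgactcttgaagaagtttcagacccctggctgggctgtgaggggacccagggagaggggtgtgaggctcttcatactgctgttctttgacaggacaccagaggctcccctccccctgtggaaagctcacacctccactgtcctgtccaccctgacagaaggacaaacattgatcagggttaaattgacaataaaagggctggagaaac

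The 4 promoters differ in base composition. GC content was 45.6% before Hal, 75.6% before Ass1, 63.2% before Prodh and 53.6% before Agxt, against a median of 52.4% over 32851 RefSeq promoters and 55.6% over the 30 members that have an entry. Hal held a C/EBP match at -150 to -143 and a TATA match on the minus strand at -28 to -23, and the other promoters shown held none of the 7. Over those 30 members, TATAAA was found in 6 (20.0%, against 14.3% of all genes with an entry), the C/EBP motif TTGCNNAA in 4 (13.3%, against 10.8%) and the HNF4 motif AAAGTCCA in 2 (6.67%, against 1.19%). The cAMP response half-site TGACG was found in 3, among them Pck1, against 19.8% of all genes with an entry. The full cAMP response element TGACGTCA, which contains the half-site, the glucocorticoid response element and the HNF1 motif were found in no member, and in 1.77%, 0.44% and 0.0111% of all genes with an entry. A match of letters is a description of the sequence only.

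Per length of gene, the members with the highest mean level in FPC control hepatocytes were Pck1 (140 ± 145 CPM per kb, SD, n = 4), Tat (136 ± 118) and G6pc (106 ± 119), followed by Cps1 (72.2 ± 33.1), Hpd (67.2 ± 5.28), Tdo2 (60.7 ± 12.1) and Ftcd (55.3 ± 4.47). The first 3 do not differ beyond their spread, which was as wide as their means, whereas Hpd and Ftcd varied little between mice. At the low end were Gldc, Nags and Amt at 3.97, 3.37 and 1.86 CPM per kb. Ass1 is left out of this order because so little of it was counted.

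The 5 urea cycle enzymes are Cps1, which makes carbamoyl phosphate from ammonia at the entry of the cycle, Otc, which joins it to ornithine to give citrulline, Ass1 and Asl, which turn citrulline into arginine, and Arg1, which splits arginine into urea and ornithine. In FPC advanced hepatocytes 4 of 5 fell (median -1.87), and in CDAHFD advanced hepatocytes 4 of 4 tested fell (median -1.99). Otc (chrX:10252305-10321024, plus strand) stood at 782, 796, 1144 and 1197 CPM in hepatocyte nuclei of FPC controls, at 289.8, 306, 331 and 369 in mild and at 134, 231 and 246 in advanced mice. Every diseased library lay below every control, and every advanced library below every mild one. The log2 fold change in advanced mice was -2.14 ± 0.23 (adjusted p = 8.04e-06). In the CDAHFD study Otc stood at 449, 629, 719.7 and 720.2 CPM in controls, 195, 208, 245 and 259 in mild and 98.6, 133 and 136 in advanced mice, again without overlap between the 3 groups. Its change in advanced mice was -2.35 ± 0.20 (adjusted p = 2.24e-06), and it was among the 4 members that also fell from mild to advanced disease on this diet (-0.88 ± 0.19, adjusted p = 0.033).

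Ass1 (chr2:31470270-31520670, plus strand) had 13, 14, 24 and 13 counts in FPC controls, 10, 6, 5 and 4 in mild mice and 2, 1 and 6 in advanced mice. On the CPM scale these were 0.630, 0.779, 0.855 and 1.236, then 0.199, 0.209, 0.303 and 0.411, then 0.0455, 0.0637 and 0.253. Control libraries were all above diseased ones, and the change was -2.71 ± 0.55 (adjusted p = 0.00124). In the CDAHFD study controls had 3, 9, 7 and 8 counts, mild mice 1, 1, 1 and 2, and the 3 advanced libraries 0. The pooled 27 counts against 0 put the advanced level at no more than 0.213 of the control level (upper end of an exact 95% interval that covers counting error only).

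Cps1, the most highly expressed urea cycle enzyme per length in FPC control hepatocytes, is shown although it lies outside the rule for values in every library, chosen after its values were seen. It stood at 5714, 6147, 6211 and 13174 CPM in FPC controls and 1090.4, 2827 and 3696 in advanced mice, with no overlap, a change of -1.498 ± 0.46 (adjusted p = 0.0186). Control Ctrl_6953 was the highest. Without it the change was -1.13 and the adjusted p 0.0506, and without advanced mouse Adv_6880 the adjusted p was 0.059. In CDAHFD advanced mice the change of Cps1 was -2.21 ± 0.52 (adjusted p = 0.00328). Asl fell in both studies, by 1.87 and 1.64 on the log2 scale, but its call on that diet was lost without CDAHFD control Ctrl_10113 or advanced mouse Adv_9845 or Adv_9896 (adjusted p from 0.0891 to 0.11), with no filter on low counts and in a fit of the compared groups alone. Arg1 had a change of -1.23 ± 0.49 (adjusted p = 0.0612) in FPC advanced mice, which did not pass in edgeR but did in DESeq2 (adjusted p = 0.0141) and without control Ctrl_6816 or Ctrl_6952 or advanced mouse Adv_6826. It fell in CDAHFD advanced mice (-1.78 ± 0.62, adjusted p = 0.0295), a call lost without control Ctrl_10113 or advanced mouse Adv_9845 or Adv_9896 (adjusted p from 0.0807 to 0.0963) and with no filter on low counts. A long non-coding RNA gene, Gm40616, overlaps 39.0% of Arg1, and whether the counting used strand is not stated, so reads of the pair may be mixed.

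The urea cycle is supplied by 3 genes. Nags makes N-acetylglutamate, the obligate activator of Cps1, Slc25a15 carries ornithine into mitochondria, and Gls2, the liver glutaminase, frees ammonia from glutamine next to the cycle. In each study 2 of the 3 fell in advanced hepatocytes, but not the same pair. Gls2 (chr10:128194635-128210004, plus strand) stood at 359, 372, 378 and 407 CPM in FPC controls, 89.7, 111, 112 and 124 in mild and 53.9, 81.5 and 91.6 in advanced mice. The 4 controls were close together and far above all diseased mice, and the changes were -1.71 ± 0.16 (adjusted p = 9.53e-06) in mild and -2.20 ± 0.18 (adjusted p = 7.09e-07) in advanced mice. On CDAHFD it stood at 141, 194, 275 and 279 CPM in controls, 85.7, 99.1, 121 and 141 in mild and 75.8, 87.4 and 92.8 in advanced mice. Advanced libraries lay below all controls, with a change of -1.36 ± 0.24 (adjusted p = 0.000466), and the highest mild library just passed the lowest control.

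Nags (chr11:102145513-102149528, plus strand) stood at 9.88, 14.2, 14.5 and 15.6 CPM in FPC controls, 7.73, 8.94, 12.1 and 19.4 in mild and 4.61, 5.28 and 8.23 in advanced mice. Only the advanced group lay apart from controls, with a change of -1.04 ± 0.32 (adjusted p = 0.0174). That call was lost without advanced mouse Adv_6826 (adjusted p = 0.0685) or Adv_6880 (adjusted p = 0.0607). On CDAHFD it stood at 9.19, 12.3, 12.5 and 15.7 CPM in controls, 14.8, 17.3, 17.7 and 20.1 in mild and 7.06, 11.1 and 18.9 in advanced mice, the advanced mice spanning the controls, and the difference was 0.01 ± 0.28 (adjusted p = 0.985). Gm11586, a non-coding RNA gene, overlaps 19.8% of Nags. Slc25a15 showed the reverse order, with -0.49 ± 0.47 (adjusted p = 0.421) in FPC advanced mice, which did not pass, and -2.24 ± 0.61 (adjusted p = 0.00869) in CDAHFD advanced mice, which did. The difference between the diets did not pass for Nags (adjusted p = 0.105) or Slc25a15 (adjusted p = 0.169).

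In gluconeogenesis, Pcx makes oxaloacetate from pyruvate, Pck1 turns it into phosphoenolpyruvate, Fbp1 removes a phosphate from fructose bisphosphate, and G6pc releases free glucose. Pck1 and G6pc are shown in full though they lie outside the rule, and were chosen after their values were seen. Pck1 (chr2:173153073-173159253, plus strand) stood at 102, 150.0, 1246 and 1951 CPM in FPC controls, 161, 622, 632 and 891 in mild and 317, 401 and 607 in advanced mice. The controls split widely, Ctrl_6852 and Ctrl_6953 being high, and enclosed every diseased library. The difference in advanced mice was -0.84 ± 0.93 (adjusted p = 0.492) on FPC and 0.16 ± 0.76 (adjusted p = 0.869) on CDAHFD, where controls stood at 149, 388, 1288 and 1747 and advanced mice at 491, 971 and 1510.0 CPM. The wide spread between control mice gives both differences large errors.

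G6pc (chr11:101367730-101377903, plus strand) stood at 119, 234, 1241 and 2735 CPM in FPC controls, 251, 299.9, 506 and 594 in mild and 88.9, 265 and 403 in advanced mice. The same controls were high, groups overlapped, and the difference of -1.98 ± 0.97 (adjusted p = 0.119) did not pass. Levels on CDAHFD were 565, 749, 1671 and 2057 CPM in controls, 53.6, 68.6, 82.4 and 207 in mild and 21.2, 141 and 162 in advanced mice. Here all diseased libraries were far below all controls, and G6pc changed by -3.61 ± 0.71 (adjusted p = 0.00152) in mild and -3.53 ± 0.80 (adjusted p = 0.00311) in advanced mice. The difference between the diets in advanced disease was -1.49 ± 1.23 (adjusted p = 0.446) and did not pass.

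Pcx (chr19:4510472-4621752, plus strand) stood at 759, 837, 860.3 and 988 CPM in FPC controls, 465, 613, 637 and 771 in mild and 329, 503 and 611 in advanced mice, the advanced group being wholly below controls (-0.72 ± 0.21, adjusted p = 0.0149). Without mouse Adv_6880 its adjusted p was 0.0568. On CDAHFD controls stood at 312, 429, 755 and 1028 and advanced mice at 261, 390.0 and 422 CPM, which overlap, and the difference was -0.80 ± 0.36 (adjusted p = 0.0731). It passed in DESeq2 (adjusted p = 0.0437), and with both crossed controls left out (adjusted p = 0.0266). Fbp1 fell in CDAHFD mild (-1.95 ± 0.25, adjusted p = 5.59e-05) and advanced mice (-1.94 ± 0.27, adjusted p = 9.26e-05), and its difference in FPC advanced mice was -0.75 ± 0.34 (adjusted p = 0.09). Gm38679, a non-coding RNA gene, overlaps 34.1% of Fbp1.

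**Figure D2:**
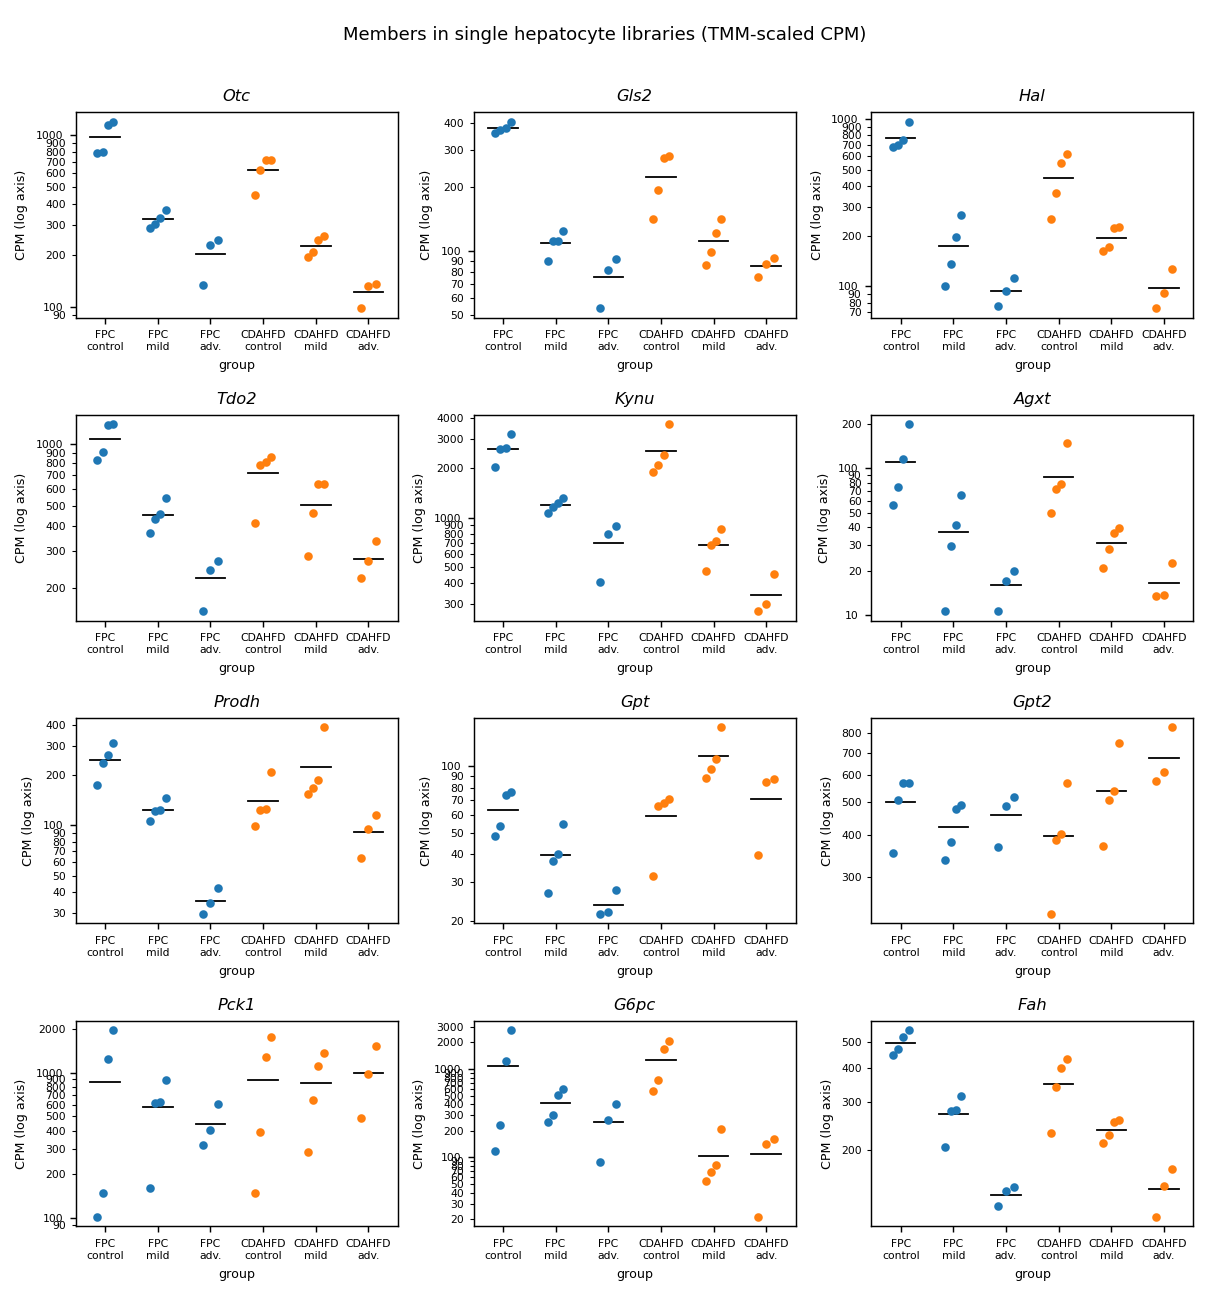
Level of selected members in every hepatocyte library, in TMM-scaled CPM on a log axis, by group, with a black bar at the group mean. FPC is blue and CDAHFD orange. Otc separates the 3 groups within each study, whereas Pck1 controls spread from 102 to 1951 CPM on FPC.

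In tyrosine breakdown, Tat takes the amino group off tyrosine, Hpd makes homogentisate, Hgd opens its ring, and Fah ends the path with fumarate and acetoacetate. In FPC advanced hepatocytes Hpd and Fah fell, and in CDAHFD advanced hepatocytes Hpd, Hgd and Fah fell. Hpd (chr5:123171807-123182686, minus strand) stood at 654, 727, 754 and 789 CPM in FPC controls, 296, 508, 514 and 536 in mild and 124, 217 and 234 in advanced mice. The 3 groups did not overlap, mild mouse Mild_6825 being low in its group, and the change was -1.81 ± 0.24 (adjusted p = 5.33e-05) from control to advanced and -1.23 ± 0.24 (adjusted p = 0.00292) from mild to advanced. Levels on CDAHFD were 365, 630.2, 792 and 1007 CPM in controls, 339, 461, 529.6 and 663 in mild and 236, 270.4 and 327 in advanced mice. Advanced mice lay below all controls (-1.32 ± 0.32, adjusted p = 0.00383), and mild mice overlapped them.

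Fah (chr7:84585159-84605942, minus strand) stood at 447, 471, 520.1 and 552 CPM in FPC controls, 206, 279, 282 and 318 in mild and 125, 141 and 146 in advanced mice, 3 separate steps down. It fell in mild (-0.79 ± 0.13, adjusted p = 0.000632) and further in advanced mice (-1.74 ± 0.15, adjusted p = 1.19e-06). CDAHFD controls had 232, 342, 400.4 and 433 CPM, mild mice 213, 228, 254 and 257 and advanced mice 114, 148 and 171, with advanced below all others and a change of -1.27 ± 0.21 (adjusted p = 0.000237). Hgd, with Gm46559 over 5.5% of its span, changed by -0.83 ± 0.34 (adjusted p = 0.0578) in FPC advanced mice, short of the threshold in edgeR but not in DESeq2 (adjusted p = 0.0278), and fell by 2.43 on the log2 scale in CDAHFD advanced mice (adjusted p = 0.000721). Tat did not pass in either, with -1.29 ± 0.63 (adjusted p = 0.118) and -0.19 ± 0.63 (adjusted p = 0.815), and its FPC controls ran from 339 to 2784 CPM.

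In tryptophan breakdown, Tdo2 opens the tryptophan ring, Afmid gives kynurenine, Kmo hydroxylates it, Kynu cleaves it, and Haao leads on to quinolinate, from which NAD can be made. All 5 fell in advanced hepatocytes of both studies, with medians of -1.70 (FPC) and -1.92 (CDAHFD). Tdo2 (chr3:81958414-81975728, minus strand) stood at 836, 905, 1224 and 1237 CPM in FPC controls, 366, 430.3, 456 and 541 in mild and 154, 243 and 269.9 in advanced mice. The groups did not overlap, and the change was -2.12 ± 0.22 (adjusted p = 6.72e-06). In the CDAHFD study values were 413, 788, 818 and 859 CPM in controls, 286, 462, 633 and 637 in mild and 224, 269 and 335 in advanced mice. Control Ctrl_9862 was far below the other controls, and advanced mice were below it (-1.37 ± 0.31, adjusted p = 0.0028).

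Kynu (chr2:43555325-43683048, plus strand) stood at 2029, 2609, 2634 and 3200.1 CPM in FPC controls, 1061, 1169, 1228 and 1320.2 in mild and 410.4, 798 and 893 in advanced mice, with no overlap (-1.78 ± 0.25, adjusted p = 7.45e-05). On CDAHFD it stood at 1901, 2099, 2399.9 and 3669.6 CPM in controls, 479, 686, 724 and 858 in mild and 272, 299 and 458 in advanced mice, again with no overlap (-2.86 ± 0.30, adjusted p = 9.32e-06). Haao fell by 1.68 (FPC) and 2.10 (CDAHFD) on the log2 scale in advanced mice, and it also fell from mild to advanced disease in both (-1.05 ± 0.22, adjusted p = 0.0042 and -1.15 ± 0.12, adjusted p = 0.000889). Its CDAHFD controls were within 434 to 467 CPM. Kmo fell by 1.51 and 1.92, and Afmid by 1.70 and 1.23, on the same scale. Afmid lost its CDAHFD call without advanced mouse Adv_9845 (adjusted p = 0.0576).

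Among the genes of transamination and serine use, Sds deaminates serine to pyruvate, Agxt and Agxt2 use alanine and glyoxylate, Got1 is the cytosolic aspartate aminotransferase, and Gpt and Gpt2 are the cytosolic and mitochondrial alanine aminotransferases that make pyruvate from alanine. In FPC advanced hepatocytes 5 of 6 fell (median -1.27), and in CDAHFD advanced hepatocytes Agxt and Agxt2 fell and Gpt2 rose (median -0.58). Agxt (chr1:93135240-93145421, plus strand) stood at 55.8, 74.4, 115 and 199 CPM in FPC controls, 10.7, 29.7, 41.2 and 66.0 in mild and 10.7, 17.03 and 20.1 in advanced mice. Advanced mice were all below controls (-2.67 ± 0.61, adjusted p = 0.00426), and mild mice overlapped both. Levels on CDAHFD were 49.6, 72.2, 78.5 and 148 CPM in controls, 20.8, 28.1, 36.4 and 39.4 in mild and 13.6, 13.7 and 22.6 in advanced mice, diseased mice all being below controls (-2.38 ± 0.38, adjusted p = 0.00026).

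Got1 (chr19:43499753-43524605, minus strand) stood at 210.4, 229, 259 and 384 CPM in FPC controls, 49.7, 87.3, 93.6 and 246 in mild and 54.1, 81.3 and 104 in advanced mice, a change of -1.64 ± 0.48 (adjusted p = 0.0149) that was lost without mouse Adv_6880 (adjusted p = 0.0658). One mild library reached the controls, and the advanced libraries did not. On CDAHFD controls stood at 117, 162, 293 and 424 and advanced mice at 73.5, 162 and 186 CPM. These overlap, and the difference was -0.81 ± 0.47 (adjusted p = 0.16). Sds fell in FPC advanced mice at the edge of the threshold (-1.238 ± 0.47, adjusted p = 0.0492), a call lost without control Ctrl_6816, Ctrl_6852 or Ctrl_6952 or without advanced mouse Adv_6826 or Adv_6880 (adjusted p from 0.052 to 0.134). It was also lost with library totals, RLE size factors, either other filter and the compared groups alone (adjusted p from 0.0504 to 0.138). Agxt2 fell by 0.80 and 0.80 on the log2 scale, the FPC call being lost without control Ctrl_6952 or advanced mouse Adv_6880 or Adv_6904 (adjusted p from 0.0575 to 0.0907).

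Of the alanine aminotransferases, only Gpt fell in FPC advanced mice, and both had differences above 0 in CDAHFD advanced mice. The genes were not tested against each other. Gpt (chr15:76696764-76699675, plus strand) stood at 48.5, 53.9, 74.3 and 76.3 CPM in FPC controls, 26.8, 37.4, 40.1 and 55.0 in mild and 21.4, 21.8 and 27.7 in advanced mice, where it was below all controls and fell (-1.30 ± 0.23, adjusted p = 0.000514). CDAHFD controls had 31.9, 66.3, 68.3 and 71.1 CPM, mild mice 88.8, 97.4, 108 and 149.9 and advanced mice 39.7, 84.7 and 88.0. Every mild library was above every control (0.91 ± 0.30, adjusted p = 0.022), control Ctrl_9862 stood far below the other controls, and the advanced difference of 0.27 ± 0.32 (adjusted p = 0.486) did not pass. Gpt2 (chr8:85492617-85527558, plus strand) stood at 353, 509, 571 and 571 CPM in FPC controls, 337, 381, 476 and 492 in mild and 369, 488 and 519 in advanced mice, all overlapping (-0.01 ± 0.20, adjusted p = 0.986). In the CDAHFD study values were 233, 386, 402 and 568 CPM in controls, 371, 506, 541 and 747 in mild and 577, 615 and 833 in advanced mice, advanced mice being above all controls (0.78 ± 0.29, adjusted p = 0.0332). That rise did not pass with both crossed controls left out (0.47, adjusted p = 0.187). Nor did it pass without Ctrl_9862, Ctrl_9867 or Ctrl_10110 alone, or without advanced mouse Adv_9845 or Adv_10104 (adjusted p from 0.0515 to 0.134).

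In lysine and proline breakdown, Aass starts lysine breakdown in mitochondria, Prodh oxidises proline and Prodh2 hydroxyproline, and Aldh4a1 takes both products on towards glutamate and its hydroxylated form. All 4 fell in FPC advanced hepatocytes (median -1.59), and Aass and Prodh2 fell in CDAHFD advanced hepatocytes (median of the 4, -0.99). Prodh (chr16:18071726-18089190, minus strand) stood at 175, 237, 265 and 314 CPM in FPC controls, 106, 123, 124 and 145 in mild and 29.4, 34.5 and 42.3 in advanced mice. It fell in separate steps, with -0.91 ± 0.17 (adjusted p = 0.00145) in mild and -2.69 ± 0.21 (adjusted p = 3.68e-07) in advanced mice. On CDAHFD it stood at 98.8, 124, 126 and 209 CPM in controls, 154, 167, 187 and 388 in mild and 63.6, 94.98 and 115 in advanced mice. Mild mouse Mild_10102 was far above the rest, advanced mice overlapped controls, and neither difference passed (0.69 ± 0.32, adjusted p = 0.0879 in mild, -0.59 ± 0.35, adjusted p = 0.169 in advanced).

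Aass (chr6:23072173-23132986, minus strand) stood at 569, 786, 801 and 927 CPM in FPC controls, 353, 371, 384 and 578 in mild and 176, 203 and 284 in advanced mice. Mild mouse Mild_6825 was high in its group and just above the lowest control, and advanced mice were below all others (-1.68 ± 0.23, adjusted p = 5.99e-05). Levels on CDAHFD were 405, 456, 609.5 and 677 CPM in controls, 268, 429, 445 and 479 in mild and 169.9, 194 and 248.6 in advanced mice. Here too the advanced group was below all others (-1.38 ± 0.24, adjusted p = 0.000377), with mild overlapping controls. Prodh2 fell in both advanced groups (-1.500 ± 0.22, adjusted p = 8.91e-05 on FPC and -1.502 ± 0.18, adjusted p = 2.22e-05 on CDAHFD), and Aldh4a1 by 1.22 in FPC advanced mice, while its CDAHFD difference was -0.44 ± 0.20 (adjusted p = 0.0732) and passed with both crossed controls left out (adjusted p = 0.0267).

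In histidine and glycine breakdown, Hal releases ammonia from histidine to give urocanate, Uroc1 and Amdhd1 take the next steps, and Ftcd passes the last carbon to folate, while Gldc and Amt belong to the glycine cleavage system. The 4 histidine genes fell in advanced hepatocytes of both studies. Hal (chr10:93488768-93516743, plus strand) stood at 679, 701, 748 and 969 CPM in FPC controls, 101, 136, 196 and 267 in mild and 76.0, 93.9 and 113 in advanced mice. Mild and advanced mice overlapped and both lay far below controls, with changes of -2.06 ± 0.26 (adjusted p = 7.96e-05) in mild and -2.91 ± 0.30 (adjusted p = 5.8e-06) in advanced mice. CDAHFD controls had 252, 359, 548 and 618 CPM, mild mice 162, 172, 225 and 225 and advanced mice 73.9, 91.3 and 127. The 3 groups did not overlap, and the advanced change was -2.18 ± 0.31 (adjusted p = 0.000113).

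Ftcd (chr10:76575648-76590338, plus strand) stood at 736, 787, 837 and 889 CPM in FPC controls, 328, 399, 419 and 506 in mild and 186, 261 and 274 in advanced mice, 3 separate groups (-1.64 ± 0.18, adjusted p = 8.72e-06). In the CDAHFD study values were 686, 818, 837 and 888 CPM in controls, 365, 414, 501 and 518 in mild and 334, 350.1 and 399 in advanced mice. Controls were again apart, but mild and advanced mice overlapped (-1.14 ± 0.15, adjusted p = 5.37e-05). Uroc1 fell by 1.41 and 0.96 and Amdhd1 by 1.58 and 0.78 on the log2 scale, FPC before CDAHFD. Amdhd1 lost its CDAHFD call without both crossed controls or without advanced mouse Adv_9896 or Adv_10104 (adjusted p from 0.0542 to 0.0755). Gldc fell in CDAHFD advanced mice (-2.27 ± 0.59, adjusted p = 0.00684), with -1.54 ± 0.68 (adjusted p = 0.088) in FPC advanced mice, where it passed in DESeq2 (adjusted p = 0.0405), and Amt was near 0 in both (-0.14 ± 0.37 and 0.12 ± 0.37).

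**Figure D3:**
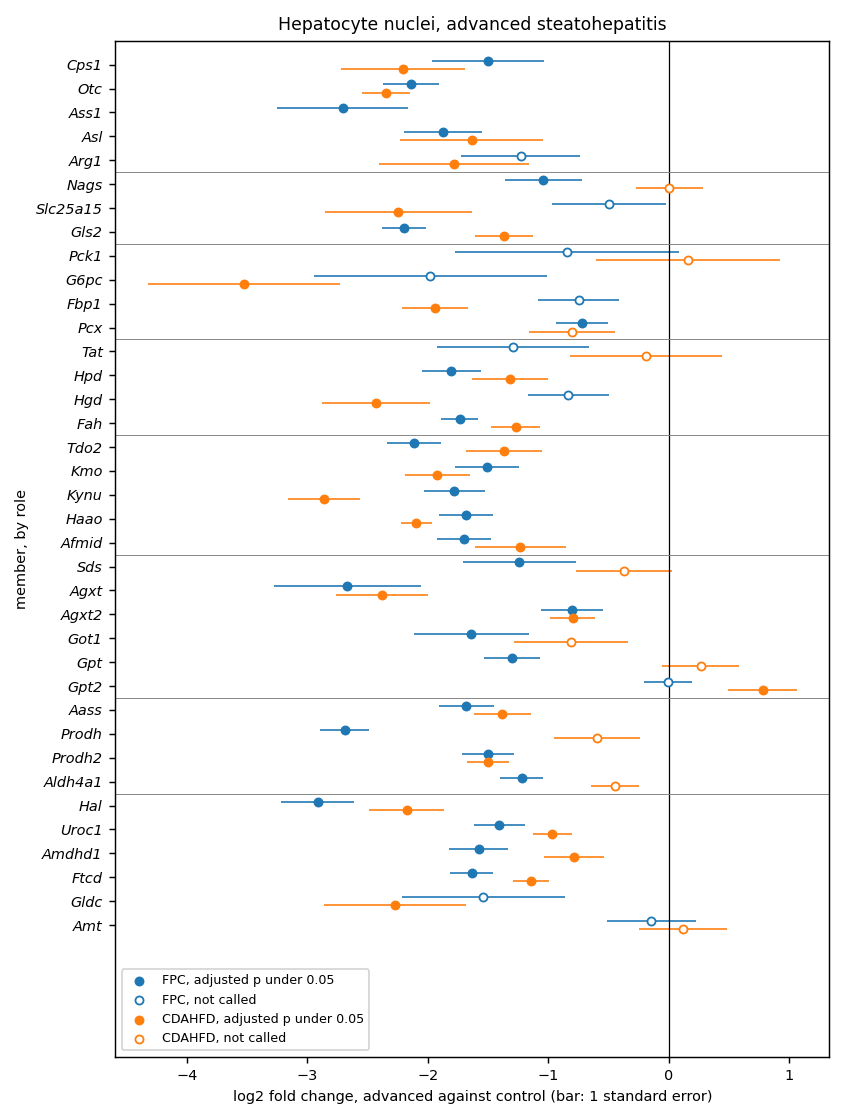
Log2 fold change with its SE of each member in hepatocyte nuclei of advanced against control mice, FPC in blue and CDAHFD in orange, by role group. Most points lie below 0 for both diets, and Gpt2 on CDAHFD lies above it at 0.78.

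In hepatocyte nuclei of mild FPC mice, 19 of 37 members fell and none rose (median -0.81), against 11.3% of all genes called lower and 33.1% in either direction. The furthest falls were those of Hal, Gls2, Asl, Ass1, Otc and Agxt, with log2 fold changes from -2.06 ± 0.26 for Hal to -1.505 ± 0.52 for Agxt. Mild libraries lay wholly below controls for 20 members (18.9% of all genes). From mild to advanced FPC disease 13 members fell further and none rose (median -0.63; 7.49% of all genes lower, 20.2% in either direction), Prodh by the most (-1.78 ± 0.20, adjusted p = 5.61e-05). Without advanced mouse Adv_6880 that count was 8.

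In hepatocyte nuclei of mild CDAHFD mice, 17 of 36 tested members fell and Gpt rose (median -0.69), against 26.7% of all genes called lower, 29.6% higher and 56.3% in either direction. Mild libraries lay below all controls for 14 members (25.2% of all genes) and above for Gpt (27.6%). G6pc, Gldc and Slc25a15 fell by more than 2 on the log2 scale (-3.61 ± 0.71, -2.40 ± 0.53 and -2.06 ± 0.54). With both crossed controls left out, 19 members fell. With library totals, 15 fell and 4 rose. From mild to advanced disease, Otc, Haao, Aass and Prodh2 fell (median over 36 members -0.54; 1.52% of all genes lower, 1.3% higher, 2.82% in either direction). Leaving out any 1 of the 7 mice gave 1 or 2 calls in that comparison.

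The change from control to disease was compared between the diets in a single fit of all 22 hepatocyte libraries. In advanced disease 2 of 37 members differed, against 11.9% of all genes: the change on CDAHFD minus that on FPC was 2.15 ± 0.42 (adjusted p = 0.00402) for Prodh and 1.62 ± 0.42 (adjusted p = 0.0174) for Gpt; neither passed the test in CDAHFD advanced mice. In mild disease the same genes differed, Prodh by 1.68 ± 0.38 (adjusted p = 0.0106) and Gpt by 1.57 ± 0.38 (adjusted p = 0.0141) (12.2% of all genes). Gpt in advanced disease had an adjusted p of 0.0501 without CDAHFD advanced mouse Adv_9896. With both crossed controls left out Hgd also differed (-1.96, adjusted p = 0.033), having fallen further on CDAHFD. Without FPC advanced mouse Adv_6880 the count was 6, and without FPC advanced mouse Adv_6904, CDAHFD control Ctrl_10113 or CDAHFD advanced mouse Adv_9845 it was 4.

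The 2 sets of controls, both on low-fat diet for different times, differed in 2 members, Gls2 (-0.77 ± 0.20, adjusted p = 0.0313, CDAHFD-study minus FPC-study controls) and Afmid (-1.27 ± 0.29, adjusted p = 0.0172), against 3.8% of all genes. Neither difference passed with Ctrl_9862 and Ctrl_9867 left out. Within each set 1 mouse was most often the highest: FPC control Ctrl_6953 had the highest of the 4 control values for 19 of 37 members in hepatocyte nuclei (and the lowest for 10) and for 20 in whole liver nuclei, and CDAHFD control Ctrl_10113 for 20 and 22. At the low end, the hepatocyte library of Ctrl_9862 was lowest for 24 members, and so was the whole liver library of Ctrl_9867, the mouse with which it crossed. Pck1, G6pc and Tat were high in Ctrl_6852 and Ctrl_6953 and low in the other 2 FPC controls.

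Whole liver nuclei gave the same comparisons on RNA of all cell types. In FPC advanced mice 32 of 37 members fell and none rose (median -1.93; 28% of all genes lower, 59.3% in either direction), and in mild mice 29 fell (median -1.05; 18.2% lower, 43.2% in either direction). With library totals the count in FPC mild mice was 18, and the FPC advanced calls of Nags, Fbp1, Tat and Gldc were lost. From mild to advanced, 16 fell further (8.98% of all genes lower, 22.3% in either direction). In CDAHFD advanced mice 31 of 36 fell (median -1.75; 25.9% lower, 55.7% in either direction), in mild mice 26 fell (median -1.27; 24.5% lower, 52.2% in either direction), and from mild to advanced Haao and Aass fell (1.05% lower, 1.88% in either direction). That last count was 1 without mild mouse Mild_9853 or Mild_9894 or advanced mouse Adv_9845 or Adv_9896. With library totals the CDAHFD advanced calls of Pcx, Got1, Gpt and Amt were lost. Libraries lay wholly below controls for 30, 26, 28 and 19 members in FPC advanced, FPC mild, CDAHFD advanced and CDAHFD mild mice, against 28.2%, 15.5%, 22.6% and 17.4% of all genes. With both crossed controls left out, 32 and 28 fell in CDAHFD advanced and mild mice. Tat then passed in the advanced mice (-1.54, adjusted p = 0.00865). Gpt2, higher in CDAHFD advanced hepatocytes, did not pass in whole liver (0.41 ± 0.31, adjusted p = 0.288), but passed there with library totals (0.88, adjusted p = 0.0274). Hal fell the most in FPC advanced whole liver (-3.36 ± 0.35, adjusted p = 5.35e-06) and G6pc in CDAHFD (-3.94 ± 0.83, adjusted p = 0.00243).

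Summed over the 37 members, the level in hepatocyte nuclei was 23607 to 41519.9 CPM in FPC controls, 12125 to 15993 in mild and 6047 to 13118 in advanced mice, and 17572 to 45409 CPM in CDAHFD controls, 11044 to 15612 in mild and 6901 to 11295 in advanced mice. On this TMM scale, diseased and control ranges do not overlap in either study. On library totals, the CDAHFD mild range overlaps that of controls. The TMM factor was 0.794 in Ctrl_9862, the lowest CDAHFD control, and 1.03 in Mild_10102, the highest CDAHFD mild mouse. Means in whole liver nuclei, in the order control, mild and advanced, were 23059, 10005 and 6652 CPM on FPC and 23155, 8397 and 5918 on CDAHFD. The ratio of hepatocyte to whole liver level within a mouse averaged 1.27, 1.40 and 1.501 on FPC and 1.26, 1.56 and 1.63 on CDAHFD, in the same order. Among CDAHFD controls it was 0.838 in Ctrl_9862 and 1.69 in Ctrl_9867, the crossed pair, and 1.23 and 1.28 in the other 2.

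**Figure D4:**
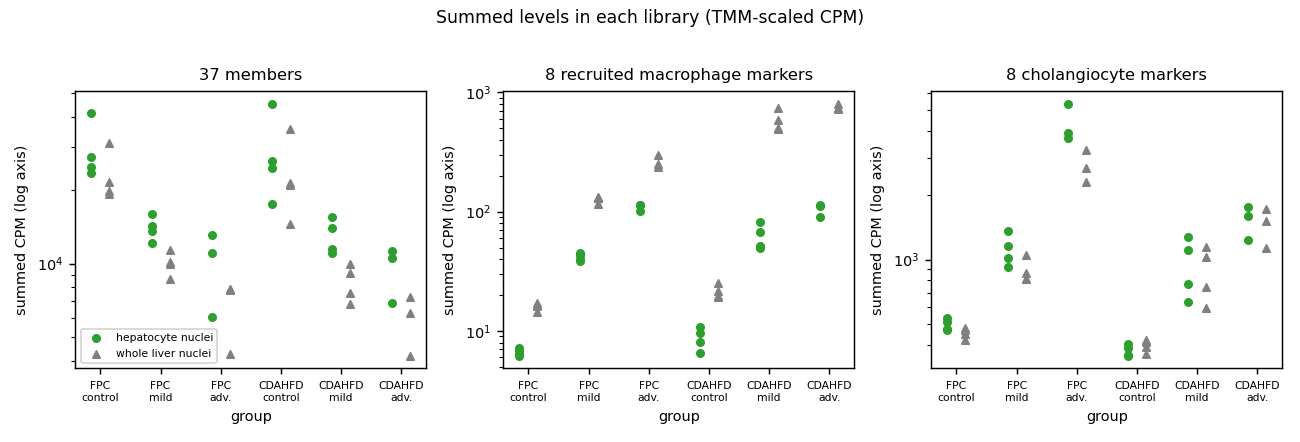
Summed level, in TMM-scaled CPM on log axes, of the 37 members, of 8 recruited macrophage markers and of 8 cholangiocyte markers in every library, by group. Green circles are hepatocyte nuclei and grey triangles whole liver nuclei. On this TMM scale the member sums of diseased hepatocyte libraries, 6047 to 15993 CPM, all lie below those of controls, and both marker sums lie above.

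Between the fractions of the same mice, members called higher in hepatocyte than in whole liver nuclei numbered 4 in FPC mild and 2 in advanced mice, and 4, 16 and 13 in CDAHFD control, mild and advanced mice, against 7.19%, 4.83%, 14.6%, 23.1% and 20.1% of all genes. In either direction the shares of all genes were 17.5%, 26.2% and 22.5% in FPC control, mild and advanced mice and 31%, 50.7% and 43.2% on CDAHFD. With the mouse as a block these counts were 33 and 29, and 12, 27 and 25. All shares of all genes in this paragraph come from fits without the block. They are no background for the counts with it, here or in the interactions. In FPC controls edgeR without the block called none of the 37, with 0 at an unadjusted p under 0.05 and 0 by DESeq2, and 28 with the block (1.35% of all genes higher without it). The members' median log2 ratio was 0.28, 0.47 and 0.47 on FPC and 0.40, 0.71 and 0.71 on CDAHFD. Without the crossed pair, CDAHFD controls had a median of 0.34. When Ctrl_9862 and Ctrl_9867 exchanged partners, the blocked counts on CDAHFD were 35, 34 and 33. Whether the change with advanced disease differed between fractions was tested as an interaction: on CDAHFD it passed for Haao (0.56 ± 0.16, adjusted p = 0.0344; 10.2% of all genes), which fell less in hepatocyte than in whole liver nuclei. With the mouse as a block 7 members passed on CDAHFD, and 21 with exchanged partners, all of them higher. The call of Haao without the block was lost with both crossed controls left out, and also without any 1 of the 4 controls or without advanced mouse Adv_9896 or Adv_10104. On FPC no member passed in edgeR (3.82% of all genes), 0 had an unadjusted p under 0.05 and 0 passed in DESeq2, while 7 passed with the block.

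Other genes of nitrogen handling, gluconeogenesis and amino acid use, from a wider list, were read in the same fits. Of 18 further nitrogen genes tested in FPC advanced hepatocytes 11 fell and 2 rose (over all genes tested, 20.4% fell and 26.5% rose), and of 17 on CDAHFD 10 fell and 2 rose (over all genes, 29.2% and 30.3%). Car5a, the mitochondrial carbonic anhydrase that supplies Cps1 with bicarbonate, fell by 2.72 and 1.93 on the log2 scale. Arg2, the mitochondrial arginase, had 2 counts over the 4 FPC control libraries and 28 over the 3 advanced ones, a depth-corrected ratio of 13.3 with an exact 95% interval of 3.35 to 115 for counting error, and it passed the test (adjusted p = 0.0102).

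Of 22 further genes of glucose metabolism 6 fell and 2 rose in FPC advanced hepatocytes, and 7 fell and 2 rose on CDAHFD. The shares that fell, 27.3% and 31.8%, are near the 20.4% and 29.2% of all genes. Over all genes, 26.5% and 30.3% rose. Pck2, the mitochondrial form of Pck1, stood at 0.122, 0.194, 0.419 and 0.515 CPM in FPC controls and 2.83, 5.53 and 6.56 in advanced mice, and at 0.146, 0.203, 0.301 and 0.472 and 5.73, 6.03 and 7.55 on CDAHFD. It rose without overlap in both (4.08 ± 0.43, adjusted p = 6.57e-06 and 4.46 ± 0.32, adjusted p = 6.61e-07). Control libraries held only 2 to 10 counts of Pck2 each on FPC and 3 to 11 on CDAHFD. Macrophage and cholangiocyte marker levels were also higher in these advanced libraries, and their part in the rises of Pck2 and Arg2 was not tested. Mdh1, cytosolic malate dehydrogenase, fell by 1.25 and 1.53, and Gckr, the glucokinase regulator, by 1.14 and 1.73 on the log2 scale.

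Of 62 further amino acid genes tested, 47 fell and 4 rose in FPC advanced hepatocytes, and 45 fell and 5 rose on CDAHFD. Over all genes, 20.4% fell and 26.5% rose on FPC, and 29.2% and 30.3% on CDAHFD, so rises were fewer here than among all genes. The 4 that rose on FPC were Csad, Phgdh, Psat1 and Aldh18a1, of which the last 3 make amino acids: Phgdh and Psat1 start serine synthesis and Aldh18a1 starts that of proline. Psat1 stood at 0.0485, 0.103, 0.180 and 0.183 CPM in FPC controls and 1.08, 2.45 and 3.51 in advanced mice, a rise of 4.29 ± 0.52 (adjusted p = 2.12e-05), and rose by 2.79 ± 0.35 on CDAHFD. Its control libraries held only 1 to 3 counts each on FPC and 4 to 11 on CDAHFD. Aldh18a1 rose by 3.18 ± 0.39 on FPC and 1.90 ± 0.23 on CDAHFD. Phgdh had 3 counts over the FPC controls and 133 over the advanced libraries, a ratio of 42.1 with an interval of 14.1 to 207 for counting error. It rose by 4.53 ± 0.59 on CDAHFD, where control libraries held only 0 to 4 counts each. On FPC these rises stand beside the falls of Prodh and Sds, which use proline and serine. The Sds call was lost under several alternatives. On CDAHFD Phgdh, Psat1 and Aldh18a1 also rose, and neither Prodh nor Sds passed the test. In both studies the rises stand beside the higher macrophage and cholangiocyte marker levels of the same libraries, whose part was not tested.

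Of 25 transcription factors and cofactors listed as regulators of these pathways, 15 fell and none rose in FPC advanced hepatocytes, against 20.4% and 26.5% of all genes, and 13 fell and 2 rose on CDAHFD, against 29.2% and 30.3%. Klf15, which drives amino acid breakdown in fasting, fell on FPC (-1.44 ± 0.16, adjusted p = 1.12e-05) and had -0.98 ± 0.47 (adjusted p = 0.0916) on CDAHFD. Cebpa, which maintains many urea cycle genes, fell on FPC (-1.28 ± 0.29, adjusted p = 0.00266) and had -0.62 ± 0.32 (adjusted p = 0.111) on CDAHFD. Nr0b2, a repressor induced by bile acids, fell in both (-1.78 ± 0.54, adjusted p = 0.0184 and -1.05 ± 0.35, adjusted p = 0.0208). Hepatocytes differ along the axis from portal to central vein. In FPC advanced hepatocytes 4 of 8 periportal markers fell and none rose, and 5 of 10 pericentral markers fell and 1 rose (20.4% and 26.5% of all genes). The mean summed periportal level was 3104 CPM in FPC control and 1787 CPM in advanced hepatocytes, and the pericentral level 3930 and 929 CPM. On CDAHFD 5 periportal markers fell and 2 rose, and 4 pericentral markers fell and 3 rose, the latter near the 29.2% and 30.3% of all genes. There the mean sums were 3236 and 1933 CPM for periportal and 3065 and 1537 CPM for pericentral markers. The pericentral sum ran from 1495 to 4138 CPM in those controls and overlapped that of advanced mice.

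**Figure D5:**
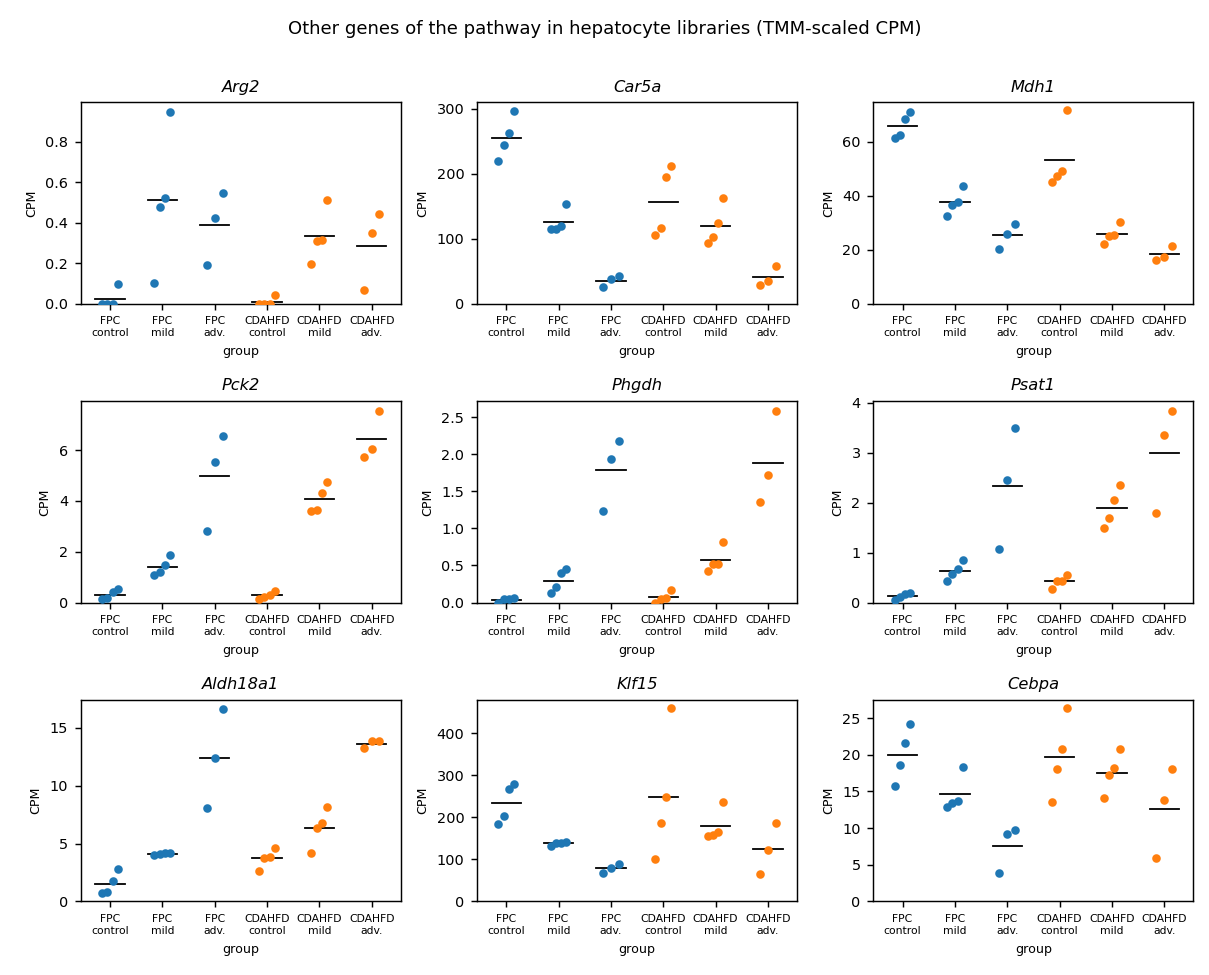
Level of further pathway genes (Arg2, Car5a, Mdh1, Pck2, Phgdh, Psat1, Aldh18a1, Klf15, Cebpa) in every hepatocyte library, in TMM-scaled CPM on linear axes, by group, with a black bar at the group mean. FPC is blue and CDAHFD orange. Pck2 and Psat1 are higher in advanced mice of both studies, and Car5a is lower.

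The authors' deposited table of fold changes in hepatocyte nuclei covers the same members. Per the authors' deposited table, 30 of 37 were lower and none higher at an adjusted p under 0.05 in FPC advanced against control mice (23.2% of all genes lower), 21 lower in mild (17%), and 13 lower in advanced against mild mice (7.11%). For CDAHFD the authors' deposited table gave 27 lower (29.1%) and 1 higher (26.7%) in advanced mice, 19 lower (27.7%) and 2 higher (24.7%) in mild mice, and 9 lower in advanced against mild mice (3.42%).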

How the data were processed

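RNA of bead-bound hepatocyte nuclei and of whole liver nuclei from 22 mice was sequenced without poly-A selection, as stranded paired ends of 50 bases from 50 to 100 ng of RNA, per the labels' protocols. The authors aligned reads to mm10 with STAR 2.4.2a and used DESeq2 1.24.0, per the submitters' processing notes. The counter and its strand setting are not given in the sources used here. The deposited count table holds raw counts per gene body, per the file headers. A second deposited table gives the authors' log2 fold changes and adjusted p-values. Symbols came from that table for 13147 identifiers and from RefSeq for 6879, and 79 had none.

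Groups and the mouse number came from the sample titles. Genes were filtered with filterByExpr, scaled by TMM and fitted with edgeR 4.0.16 (limma 3.58.1, R 4.3.3), with the robust quasi-likelihood fit and Benjamini-Hochberg adjustment over all genes tested at 0.05. The libraries of 1 fraction and diet shared a fit. Fits between fractions held both fractions of 1 diet, and fits between diets all hepatocyte libraries. SE is the log2 fold change divided by the root of F. Scripts were tested on simulated counts. Libraries of the same mouse were paired by the mouse number: the deviations of 20 of 22 mice correlated over 0.1 and best with their own partner over 11781 genes, the exceptions being CDAHFD controls Ctrl_9862 and Ctrl_9867. No 2 libraries of a group agreed within counting noise (chi-square over its degrees of freedom was 20.9 or more).

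Values in every library are given for the 2 members of each role group that changed most among those called in FPC advanced hepatocytes, for every member called higher in an advanced group, and for those that differed between diets in advanced hepatocytes. The members and lists were chosen with earlier results of these data known. The wider pathway lists leave out 1 gene, which is not reported here, and of the genes they hold only examples are named. Alternatives were DESeq2 1.42.0, RLE size factors, library totals, 2 other filters, the compared groups alone, leaving out each mouse, the mouse as a block, and leaving out both crossed controls. The alternatives with library totals, with exchanged partners and without both crossed controls were chosen after seeing the data. Promoters are from RefSeq, with entries for 30 members.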

Additional observations from a re-analysis of the deposited data

Results flagged for a closer look

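Among 76 groups of 4 hepatocyte libraries (19 members, 4 groups each), 6 held 1 library far from the other 3 by Dixon's criterion at 95%, where chance gives about 1 in 20. In CDAHFD mild mice, mouse Mild_10102 was high for Ass1 (0.131 CPM, from 2 counts) and for Prodh (388 CPM). In FPC mild mice, mouse Mild_6825 was low for Hpd (296 CPM) and high for Aass (578 CPM). In CDAHFD controls, mouse Ctrl_9862 was low for Tdo2 (413 CPM) and for Gpt (31.9 CPM), and it is one of the crossed pair.

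The change with disease differed between the diets for Gpt, by 1.62 (log2, CDAHFD minus FPC) in advanced and 1.57 in mild disease, and for Prodh, by 2.15 and 1.68. Diet, duration and study cannot be told apart there. For Haao the change in CDAHFD advanced mice differed between hepatocyte and whole liver nuclei by 0.56, in the fit without the mouse as a block. In that fit 10.2% of all genes were called. The Haao call was lost with both crossed controls left out, without any single control, and without advanced mouse Adv_9896 or Adv_10104.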

How the results depend on the processing

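Counts below are members called in either direction. For hepatocyte nuclei, leaving out 1 mouse at a time gave 21 to 28 calls in FPC advanced mice, 14 to 19 in mild and 8 to 15 in advanced against mild mice, and on CDAHFD 22 to 27, 16 to 22 and 1 to 2. For whole liver nuclei the ranges were 27 to 33, 23 to 27 and 11 to 20 on FPC, and 27 to 31, 23 to 29 and 1 to 2 on CDAHFD. For hepatocyte against whole liver nuclei they were 0 to 0, 1 to 3 and 1 to 4 in FPC control, mild and advanced mice, and 2 to 3, 12 to 13 and 9 to 13 on CDAHFD. For the interactions they were 0 to 0 on FPC and 0 to 2 on CDAHFD, for the diet difference 1 to 6 in advanced and 2 to 5 in mild disease, and for controls against controls 0 to 3. Mice whose loss moved a small count by over 1.5 times were, beside those named above, FPC mild Mild_6825 and Mild_6887 (2) and Mild_6886 (1) and FPC advanced Adv_6826 (1) and Adv_6880 (4) in the fraction comparisons, CDAHFD controls Ctrl_9867 and Ctrl_10110 (2 each) in theirs, and FPC mild Mild_6886 (5) and CDAHFD control Ctrl_10110 (4) in the mild diet difference. For controls against controls, 0 were called without FPC control Ctrl_6816 or Ctrl_6952, and 1 without Ctrl_6852, Ctrl_6953, Ctrl_9862, Ctrl_10110 or Ctrl_10113.

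With library totals the count was 2 for CDAHFD advanced against mild hepatocytes (4 with TMM), 18 for FPC mild whole liver (29), 1 for CDAHFD advanced against mild whole liver (2), 0 for the fraction comparison in FPC mild (4) and advanced mice (2) and CDAHFD controls (4), and 2 for the CDAHFD interaction (1). With RLE size factors these were 2 for CDAHFD advanced against mild hepatocytes, 4 for the fraction comparison in FPC advanced mice, 1 in CDAHFD controls and 2 for the CDAHFD interaction. With a mean of at least 50 counts they were 2 for CDAHFD advanced against mild hepatocytes, 2 and 1 for the fraction comparison in FPC mild and advanced mice, and 4 for the advanced diet difference, and with no filter 5 for the fraction comparison in FPC advanced mice. DESeq2 gave 10 and 12 for CDAHFD advanced against mild in hepatocyte and whole liver nuclei, 6 and 1 for the fraction comparison in FPC advanced mice and CDAHFD controls, 3 for the CDAHFD interaction, 6 for each diet difference and 5 for controls against controls. Fits of the compared groups alone gave 9 and 7 for CDAHFD advanced against mild in hepatocyte and whole liver nuclei, 2, 1 and 0 for the fraction comparison in FPC mild, FPC advanced and CDAHFD control mice, 3 for the CDAHFD interaction, 4 for the mild diet difference and 0 for controls against controls.

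With the mouse as a replicate block, the fraction comparisons called 28, 33 and 29 members on FPC and 12, 27 and 25 on CDAHFD, and the interactions 7 on each. The share of all genes called with the block is not given here, so the blocked counts have no background beside them. With exchanged partners for Ctrl_9862 and Ctrl_9867, the pairing gave 35, 34 and 33 on CDAHFD and 21 for the interaction. Leaving out both gave 0 for the fraction comparison in CDAHFD controls, 0 for the CDAHFD interaction and 0 for controls against controls. Other counts stayed within 1.5 times of the values reported. Single members were followed in the advanced against control comparisons and the advanced diet difference, each member under each alternative. Of these pairs, 2615 kept their status, 48 gained a call, 81 lost one and 0 reversed. The 2615 include members called in neither fit, so they do not count calls kept. The cause of these moves was not tested. The low count of Ass1, unstated strand counting and 3 or 4 mice a group limit what could be seen.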
